A study of Rattus norvegicus with 16 samples.

Results

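Bile ducts are lined by cholangiocytes, and the mRNA of 7 genes that mark these epithelial cells was followed in whole liver across 5 ages. The genes are Epcam, Krt7, Krt19, Slc4a2, Cftr, Sox9 and Spp1. They were taken as every non-control probe of the array whose gene name equals one of these symbols, with Epcam also sought under its older symbol Tacstd1. The choice gave 9 probes among 41012 and 7 genes among 35069 gene names. Liver of male Lewis rats was sampled at 3, 9, 12 and 18 months (3 arrays each) and at 24 months (4 arrays). All groups shared strain, sex and specific pathogen-free housing with free food and water, and no treatment is named. Each of the 16 samples was hybridised to 1 single-colour array. The labels do not say whether each sample is a separate animal, so p-values measure the spread between these samples, which may be partly technical.

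Cholangiocytes modify the bile that hepatocytes secrete, chiefly by adding bicarbonate and water. Chloride leaves the cell through the channel Cftr and is exchanged for bicarbonate by the anion exchanger Slc4a2, also called AE2. Krt7 and Krt19 are the keratins that distinguish duct cells from hepatocytes, which carry Krt8 and Krt18. Epcam is an adhesion protein of the duct surface, Sox9 a transcription factor of the duct lineage, and Spp1 (osteopontin) a secreted matrix protein that ducts and macrophages both make.

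For 5 of these genes, each value below rests on the signal of 1 probe sequence. The 60-base probes through which these 5 were read are printed here. They are given 5′ to 3′ as the array design lists them.
Epcam: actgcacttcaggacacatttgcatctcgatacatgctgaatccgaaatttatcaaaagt
Krt19: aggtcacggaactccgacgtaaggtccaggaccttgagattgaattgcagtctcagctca
Slc4a2: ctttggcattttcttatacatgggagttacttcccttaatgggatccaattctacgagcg
Spp1: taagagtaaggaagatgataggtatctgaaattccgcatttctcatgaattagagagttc
Cftr, probe 1: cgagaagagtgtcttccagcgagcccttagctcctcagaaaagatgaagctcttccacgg
Cftr, probe 2: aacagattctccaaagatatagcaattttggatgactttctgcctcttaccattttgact
Positions are those of the files, on the rat build rn4. The Epcam probe (NCBI gene 171577) lies at chr6:11181855-11182638 on the plus strand, a span longer than the probe itself. The Krt19 probe (gene 360626) lies at chr10:89081437-89081496 and the Slc4a2 probe (gene 24780) at chr4:6101493-6101552, both on the minus strand. The Cftr probes (gene 24255) lie at chr4:44040004-44040063 and chr4:43995410-43995470 on the plus strand. Krt7 (gene 300242) was read at chr7:140175626-140175685 and Sox9 (gene 140586) by probes at chr10:102389406-102389465 and chr10:102389659-102389718, all on the plus strand. The files list the Spp1 probe (gene 25353) as unmapped. No annotation of this build was used here, so exon and UTR positions are not given. The GC content of the printed probes ran from 35% for Spp1 and the second Cftr probe to 53.3% for the first Cftr probe. The Spp1 probe was spotted 10 times on each array and the others once.

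Values are log2 of the scanner's processed signal minus the 75th percentile of the array, so 0 is the level that 75% of spots do not exceed. A probe entered the tests if it was well above background, by the scanner's own flag, on all arrays of at least 1 age. This left 7 of the 9 probes and 6 of the 7 genes, since both Cftr probes failed it. Between 52.5% and 65.2% of probes were well above background per array. The arrays lay on 7 slides scanned on 3 days. Day 1 held 3 and 9 months and 12-month array 2, and day 2 held the 24-month arrays alone. Day 3 held 18 months and 12-month arrays 3 and 4. Scan session here means the calendar year of the scan. Session 1 holds days 1 and 2, and session 2 holds day 3. The arrays that correlated least with the others of their age were 12-month array 2 (mean r = 0.962), 24-month array 4 (0.969) and 24-month array 3 (0.970).

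The question for each gene was whether its liver level differed between ages. Over any age difference, 4 of the 6 tested genes passed limma's F test (adjusted p under 0.05), against 37.4% of the 21457 genes tested. They were Epcam (adjusted p = 0.00179), Krt19 (0.0044), Slc4a2 (0.031) and Krt7 (0.0313), while Spp1 (0.0676) and Sox9 (0.169) did not pass. With each kept probe tested on its own, 4 of 7 member probes passed, against 35.5% of 25697 probes. For a steady change with age, 0 of 6 passed limma's linear trend, which called 5.8% of all genes. Epcam, 1 of 6, had an unadjusted p under 0.05, with a log2 slope of 0.025 per month (95% interval 0.0025 to 0.0476). Absence of a trend is thus not shown. Among the 60 comparisons of 6 genes over 10 pairs of ages, 14 passed, 5 of them for Epcam, 4 for Krt19, 2 each for Krt7 and Slc4a2, 1 for Spp1 and 0 for Sox9. The calls of Krt7 and Slc4a2 for any age were each lost in 7 of 16 fits that left out 1 array (adjusted p up to 0.0689 and 0.0779). Without 18-month array 4 the calls for any age numbered 2, and without 18-month array 1 or 3 those over all pairs numbered 9. In whole tissue fewer duct cells and less RNA per duct cell cannot be told apart.

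**Figure D1:**
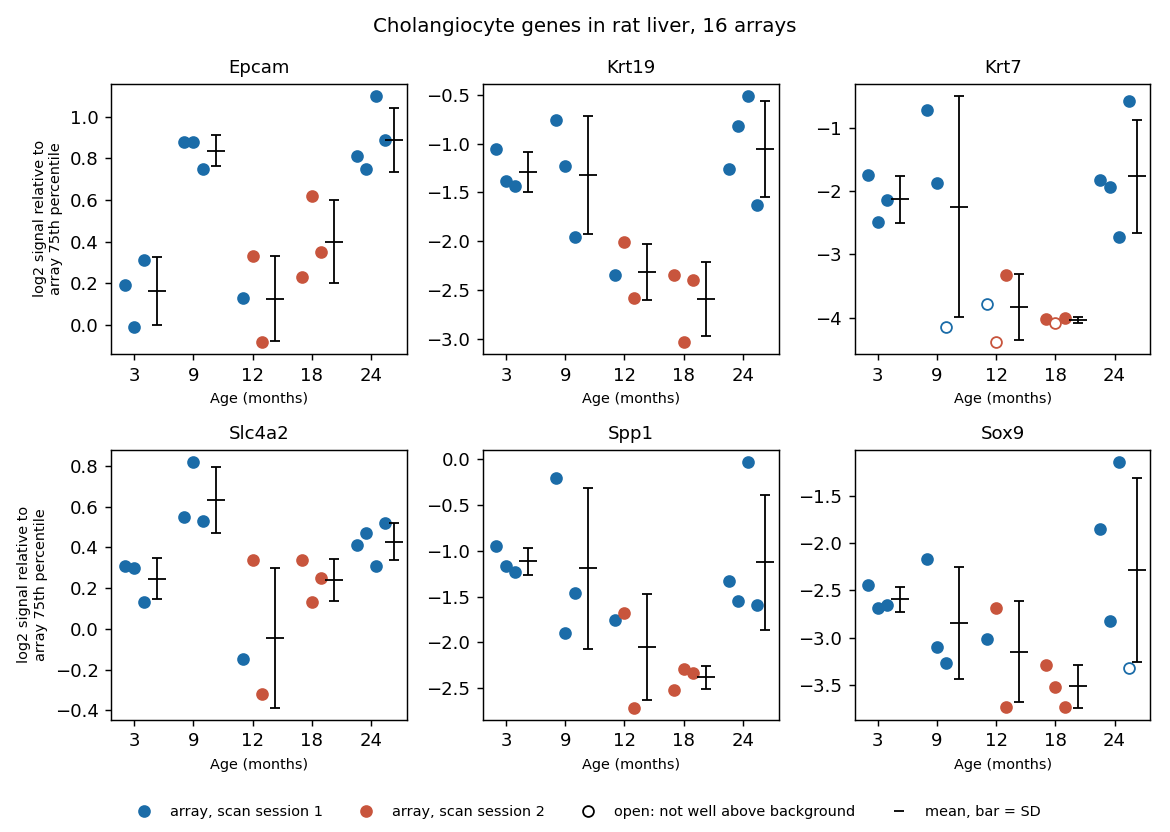
Log2 signal relative to the array's 75th percentile (y axis) against age in months (x axis) for the 6 tested genes; each point is 1 array, coloured by scan session, open where the probe was not well above background, and the black mark is the mean with its SD. Krt19, Krt7 and Spp1 sit lower at 12 and 18 months than at 3 and 24 months, while Epcam is highest at 9 and 24 months.

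The duct keratins were lowest at 12 and 18 months and highest at 24 months. Krt19 read -1.05, -1.38 and -1.43 at 3 months, -0.76, -1.23 and -1.96 at 9 months, -2.35, -2.01 and -2.58 at 12 months, -2.35, -3.03 and -2.40 at 18 months, and -1.26, -0.82, -0.51 and -1.63 at 24 months. Every 24-month array lay above every array of 12 and 18 months, and every 12- and 18-month array lay below every array of 3 and 9 months. The low 12-month array 2 (-2.35) shared its scan day with the 3- and 9-month arrays, while the 24-month arrays had a scan day of their own. A single array cannot tell batch and age apart. The order of mean levels was 18 months (-2.59 ± 0.38, SD, n = 3), 12 months (-2.31 ± 0.29), 9 months (-1.32 ± 0.60), 3 months (-1.28 ± 0.21) and 24 months (-1.05 ± 0.49, n = 4). No step between neighbours in this order passed limma's test, and the widest, -1.0 between 12 and 9 months, had an adjusted p of 0.0861. Krt19 was 2.90-fold higher at 24 than at 18 months (log2 difference 1.54 ± 0.30 SE, adjusted p = 0.00211) and 2.39-fold higher at 24 than at 12 months (1.26 ± 0.30, 0.0144). It was lower at 18 than at 3 months (-1.31, adjusted p = 0.0109) and at 18 than at 9 months (-1.28, 0.0162). Leaving out 1 array ended the call for 24 against 12 months without 12-month array 4 (0.0617). The calls against 3 and 9 months ended without 18-month array 3 (0.054 and 0.073), and the one against 9 months also without 9-month array 1 (0.0762). These ages share no session with 18 months, and with scan session as a term the differences were -1.37 (0.152) and -1.33 (0.185).

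Krt7, the other duct keratin, had a wider spread. It read -1.75, -2.49 and -2.14 at 3 months, -0.71, -1.87 and -4.15 at 9 months, -3.78, -4.38 and -3.33 at 12 months, -4.02, -4.09 and -4.01 at 18 months, and -1.82, -1.94, -2.73 and -0.58 at 24 months. It was above background on 3 of 3, 2 of 3, 1 of 3, 2 of 3 and 4 of 4 arrays of these ages, so its levels at 12 and 18 months are near the limit of measurement. All 24-month arrays lay above all 12- and 18-month arrays, and 9-month array 3 lay with the low ones. Krt7 was 4.82-fold higher at 24 than at 18 months (log2 difference 2.27 ± 0.64 SE, adjusted p = 0.0179) and 4.17-fold higher at 24 than at 12 months (2.06 ± 0.64, 0.0443). Without 18-month array 1 or array 3 the first of these calls was lost (adjusted p = 0.0514 and 0.0557), and the second was lost in 13 of 16 fits that left out 1 array (up to 0.115).

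Epcam followed another course, with high levels at 9 and 24 months. It read 0.19, -0.01 and 0.31 at 3 months, 0.88, 0.88 and 0.75 at 9 months, 0.13, 0.33 and -0.08 at 12 months, 0.23, 0.62 and 0.35 at 18 months, and 0.81, 0.75, 1.10 and 0.89 at 24 months. The arrays of 9 and 24 months did not overlap with those of 3, 12 and 18 months. In order of mean level the ages ran 12 months (0.13 ± 0.21), 3 months (0.17 ± 0.16), 18 months (0.40 ± 0.20), 9 months (0.83 ± 0.07) and 24 months (0.88 ± 0.15). No difference among 12, 3 and 18 months passed limma's test (adjusted p 0.284 to 0.895), nor did that of 18 against 9 months (0.0598) or of 24 against 9 months (0.848). The widest difference of Epcam between any pair of ages was 1.69-fold.

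Slc4a2, the anion exchanger, was highest at 9 months and lowest at 12 months, over the narrowest range of means of the 6 genes. It read 0.31, 0.30 and 0.13 at 3 months, 0.55, 0.82 and 0.53 at 9 months, -0.15, 0.34 and -0.32 at 12 months, 0.34, 0.13 and 0.25 at 18 months, and 0.41, 0.47, 0.31 and 0.52 at 24 months. The 9-month arrays lay above all others, and 12-month array 3 lay apart from the low values of arrays 2 and 4. The means were 0.25 ± 0.10, 0.64 ± 0.16, -0.04 ± 0.34, 0.24 ± 0.10 and 0.43 ± 0.09 at these ages. It was 1.39-fold higher at 24 than at 12 months (adjusted p = 0.0471), a call lost in 14 of 16 fits that left out 1 array (adjusted p up to 0.178).

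Spp1, the secreted member, read -0.95, -1.17 and -1.23 at 3 months, -0.21, -1.90 and -1.46 at 9 months, -1.75, -1.68 and -2.71 at 12 months, -2.52, -2.29 and -2.33 at 18 months, and -1.33, -1.55, -0.03 and -1.59 at 24 months. One array each at 9 and 24 months, 9-month array 1 and 24-month array 3, lay far above the others of its age. The 10 spots of the probe had a log2 SD of 0.064 to 0.224 within an array, below the SD of 0.74 between the 24-month arrays and of 0.87 between the 9-month arrays. Spp1 was 2.39-fold higher at 24 than at 18 months (log2 difference 1.26 ± 0.42 SE, adjusted p = 0.0399), and without 24-month array 3 the difference was 0.89 (0.0915). That call was lost in 8 of the 16 fits that left out 1 array.

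Sox9, the transcription factor, was dim. Its brighter probe read -2.44, -2.69 and -2.66 at 3 months, -2.17, -3.1 and -3.27 at 9 months, -3.02, -2.69 and -3.74 at 12 months, -3.29, -3.52 and -3.74 at 18 months, and -1.85, -2.82, -1.14 and -3.32 at 24 months. The 24-month arrays overlapped with those of every other age, with arrays 1 and 3 above all of them, and array 4 was not well above background. The log2 difference between 24 and 18 months was 1.23 (95% interval 0.30 to 2.17, adjusted p = 0.0515) and missed the threshold. The second probe was above background on 3 of 3 arrays at 3 months, 1 of 3 at 9, 0 of 3 at 12, 1 of 3 at 18 and 2 of 4 at 24 months. Where a group lies below background, a fold is a lower bound, taken against the lowest signal well above background on each array or the probe's own signal if higher. By that bound the second probe was at least 1.42-fold lower at 12 than at 3 months (adjusted p = 0.211) and at least 1.70-fold higher at 24 than at 12 months (0.0907). Neither difference passed the threshold. This probe was kept through its 3-month arrays alone, which favoured a drop from that age.

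Cftr, the chloride channel, was near background at every age and was not tested. Its first probe read 7.69, 8.19 and 7.05 intensity units at 3 months, 2.73, 9.40 and 7.43 at 9 months, and 3.24, 2.40 and 2.18 at 12 months. It read 51.4, 8.33 and 10.4 at 18 months and 3.76, 38.2, 25.3 and 6.98 at 24 months. The 3 highest of these, on 18-month array 1 and 24-month arrays 2 and 3, were the only ones well above background. The second probe was well above background on 18-month array 1 alone, at 19.4 units, so the array with the highest value was the same for both probes. On 24-month arrays 2 and 3 the second probe read 5.79 and 6.28 units, not well above background. The second probe read 9.72 to 19.4 units on the 5 arrays of session 2 and 3.15 to 7.60 on the 11 of session 1. Session 2 held only 12- and 18-month arrays. The 12-month array of session 1, array 2, read 5.21 units, beside 13 and 9.72 on 12-month arrays 3 and 4 of session 2. None of these 12-month values was well above background, and a single array cannot tell session and age apart.

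**Figure D2:**
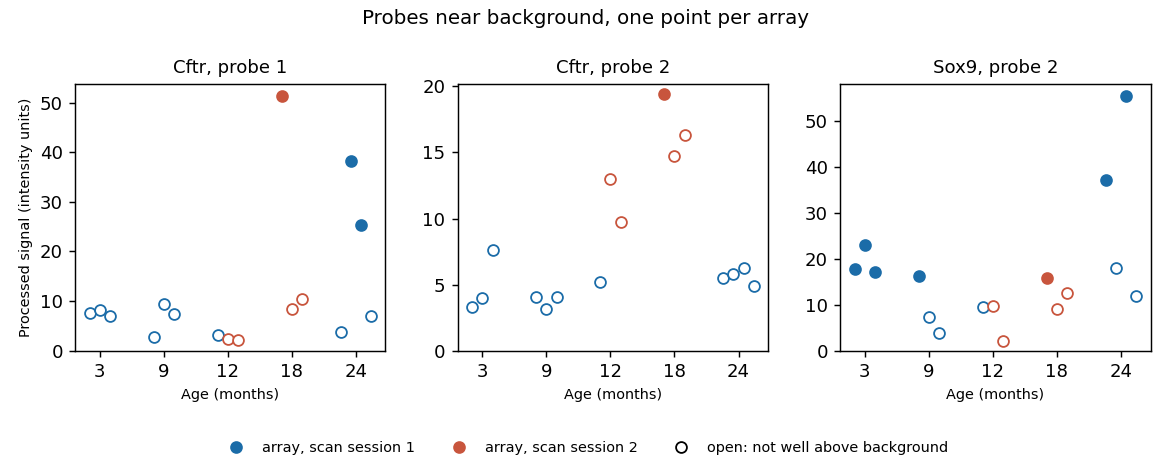
Processed signal in intensity units (y axis) against age in months (x axis) for both Cftr probes and the second Sox9 probe; each point is 1 array, coloured by scan session, filled where well above background. The first Cftr probe stands out on 18-month array 1 (51.4) and 24-month arrays 2 and 3 (38.2 and 25.3).

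The comparison of 24 with 18 months, the last step in age, held the largest differences of Krt7, Krt19 and the brighter Sox9 probe. Those of Epcam (24 against 12 months) and Slc4a2 (12 against 9 months) lay elsewhere. The second Sox9 probe differed by 0.82 at this step (limma adjusted p = 0.301) and by 1.45 at 24 against 12 months. Of 6 tested genes 4 rose, Epcam, Krt19, Krt7 and Spp1, against 25.8% of all genes called and 10.8% called higher. The median log2 difference over the 6 was 1.25, beside 0.05 over all genes. The arrays of both ages did not overlap for these 4 called genes, which is not separate support, since the same arrays gave the calls. How many of all genes did not overlap was not counted. Epcam was 1.40-fold higher (log2 difference 0.48 ± 0.14 SE, adjusted p = 0.0214). Slc4a2 differed by 0.19 (95% interval -0.13 to 0.51, adjusted p = 0.389). The Epcam call was lost without 18-month array 1 (0.103), 18-month array 4 (0.0727) or 24-month array 3 (0.0505), while Krt19 passed in all 16 such fits (0.000929 to 0.0154).

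These ages shared no slide, scan day or session, so batch and age cannot be told apart within any of them. A fit with scan session as a term, which ties the sessions through the 12-month arrays alone, gave log2 differences of 1.6 for Krt19 (adjusted p = 0.0929), 2.20 for Krt7 (0.257), 0.81 for Spp1 (0.528) and 0.48 for Epcam (0.239). With slide as a random block they were 1.53 (0.252), 2.30 (0.485), 1.34 (0.43) and 0.51 (0.44). None of the 4 calls stood in these fits. Leaving out 1 array, the count of 4 was 1 without 18-month array 1 and 2 without 18-month array 3, 18-month array 4 or 24-month array 3.

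**Figure D3:**
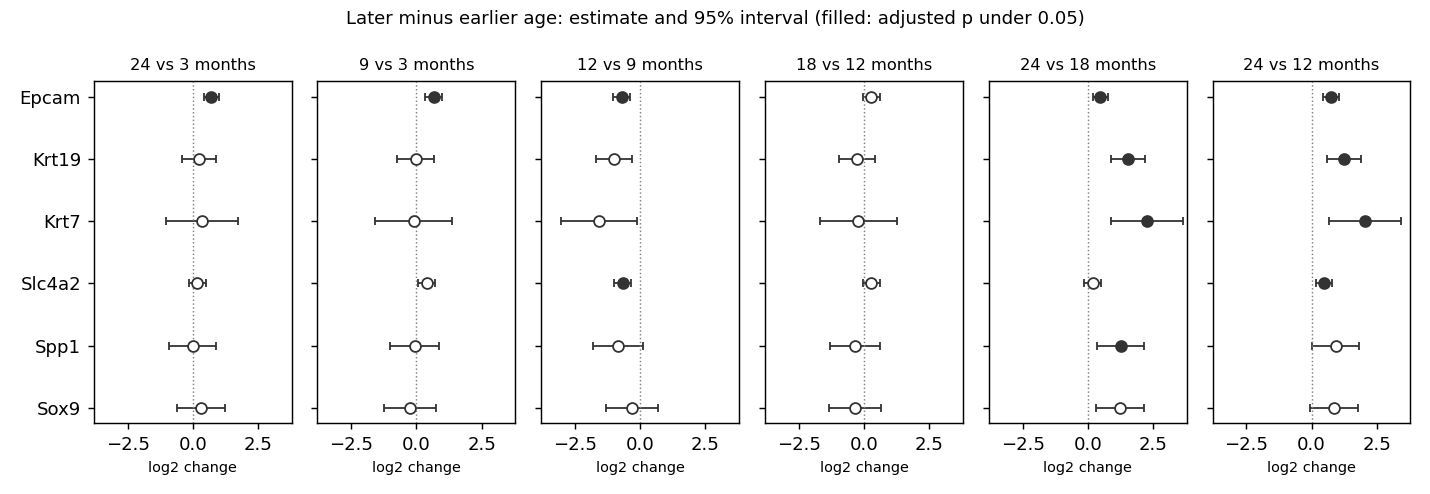
Log2 difference of the later minus the earlier age (x axis) with its 95% interval for the 6 tested genes (y axis) in 6 pairs of ages; filled points have an adjusted p under 0.05 over all 21457 genes. At 24 against 18 months the estimates of Krt7 (2.27), Krt19 (1.54), Spp1 (1.26) and Sox9 (1.23) lie to the right, and at 12 against 9 months all 6 lie to the left.

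Against 12 months, the other low age, 4 of 6 genes rose at 24 months, Epcam, Krt19, Krt7 and Slc4a2, where 15% of all genes were called and 4.11% called higher. The median log2 difference was 0.90, beside -0.05 over all genes. Epcam was 1.69-fold higher (0.76 ± 0.14 SE, adjusted p = 0.00333) and passed without any 1 array (up to 0.0206). Spp1 differed by 0.92 (0.151) and Sox9 by 0.87 (0.193). Scan session 1 held all 24-month arrays and, from another scan day and slide, 12-month array 2. A fit within it gave 0.75 for Epcam, 1.30 for Krt19, 2.01 for Krt7 and 0.58 for Slc4a2. Its 12-month arm is a single array, the one least like its age, assumed to vary like the other groups. On the arrays of 24 and 12 months alone, 0 of the 4 calls stood (Epcam 0.0798, Krt19 0.0739, Krt7 0.0759, Slc4a2 0.28). With slide as a random block 0 of the 4 calls stood, and that of Epcam had an adjusted p of 0.1. This comparison shares its 24-month arrays with the preceding one.

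Between the ends of the age range, 24 and 3 months, Epcam alone passed, 1 of 6 genes against 13.3% of all genes. The 4 arrays of 24 months averaged 0.88 ± 0.15, against 0.17 ± 0.16 over the 3 arrays of 3 months (mean ± SD), a 1.65-fold difference (0.72 ± 0.14 SE, adjusted p = 0.00421), higher in 4 of 4 arrays. The keratins and Spp1 overlapped between these ages, with log2 differences of 0.23 for Krt19 (95% interval -0.42 to 0.88), 0.36 for Krt7 (-1.01 to 1.73) and -0.01 for Spp1 (-0.90 to 0.89). Both ages lay in scan session 1 but on different scan days and slides, so batch and age cannot be told apart. A fit within that session gave 0.72 for Epcam (0.0063). With slide as a random block, where no slide held both ages, Epcam differed by 0.77 (0.167).

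At the first step, 9 against 3 months, Epcam again passed alone, 1 of 6 genes against 5.14% of all genes. It was 1.59-fold higher at 9 months (0.67 ± 0.15 SE, adjusted p = 0.0193). Slide 1 held 9-month array 2 and all 3-month arrays, and within it the difference was 0.71 (0.0548). Its call was lost without 3-month array 1 (0.066) or 2 (0.104) and without 9-month array 1 (0.0752), 2 (0.0666) or 3 (0.0538). Slc4a2 was 0.39 higher with an adjusted p of 0.203. Within slide 1 its difference was 0.57 (0.0471) and that of Spp1 -0.78 (0.0411), with a single 9-month array assumed to vary like the 3-month arrays.

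At 12 against 9 months 2 of 6 genes fell, Epcam and Slc4a2, against 6.27% of all genes called and 3.1% called lower. Epcam was 1.63-fold lower at 12 months (log2 difference -0.71 ± 0.15 SE, adjusted p = 0.0162) and Slc4a2 1.6-fold lower (-0.68 ± 0.16, 0.0248). All 6 estimates were below 0, with a median of -0.78 beside -0.01 over all genes, and those of Krt7 (-1.59, adjusted p = 0.182) and Spp1 (-0.85, 0.272) did not pass. Within slide 2, which held 9-month arrays 1 and 3 and 12-month array 2, Epcam differed by -0.68 (0.0619) and Slc4a2 by -0.69 (0.0549). Within scan session 1, which held the same 12-month array and all 9-month arrays, they differed by -0.70 (0.0358) and -0.78 (0.0184), with that lone array assumed to vary like the other groups. Both calls were lost without 9-month array 1 (0.0629 and 0.0626), 9-month array 2 (0.057 and 0.0971) or 12-month array 4 (0.0572 and 0.0849), and that of Slc4a2 also without 9-month array 3 (0.0563).

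Between 18 and 12 months 0 of 6 genes passed limma's test and 0 had an unadjusted p under 0.05, where 1.39% of all genes were called. The estimates ran from -0.36 for Sox9 to 0.28 for Slc4a2. Of the pairs not between neighbouring ages, Krt19 alone passed for 18 against 3 months (1 of 6, 23.2% of all genes) and for 18 against 9 months (1 of 6, 18.4%). By limma 0 of 6 passed for 12 against 3 months (10.7% of all genes), with 2 at an unadjusted p under 0.05, and 0 for 24 against 9 months (16.8%), with 0.

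At 3, 9 and 12 months single arrays held the highest or lowest value of their age for most of the duct genes. Of the 6 genes, 9-month array 1 had the highest value of its age for 5 and 9-month array 3 the lowest for 5. At 12 months array 3 was highest for 5 and array 4 lowest for 5, and at 3 months array 1 was highest for 5. At 24 months array 3 was highest for 4 and lowest for 2, and the 18-month arrays were highest for 3, 2 and 1 and lowest for 2, 3 and 1. No test was made of these ranks.

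The genes whose profiles over the 16 arrays were most like each member were sought among 9522 genes with a symbol and above background throughout. For Krt19 they were Strn4 (Pearson r = 0.925), Ptpn23 (0.917) and Bex3 (0.903). For Spp1 they were Slit3 (0.946), Lgals2 (0.912) and the epithelial keratin gene Krt20 (0.911). For Epcam they were Foxk2 (0.892), Zhx2 (0.888) and Pwp2 (0.888), and for Slc4a2 Wsb2 (0.886), Polr3d (0.883) and Zkscan5 (0.855). No gene appeared in more than 1 of these sets. The arrays share slides and scan sessions, so these values describe the 16 arrays only.

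Other genes of duct physiology and of other cells were taken from lists drawn up with the members. Their counts stand against 37.4% of all genes called for any age and, at 24 against 18 months, 10.8% called higher and 15% called lower. Of 16 genes of secretion and transport 9 were measured and 4 differed with age, Car2, Aqp1, Itpr3 and Slc4a4. Aqp1, a water channel, averaged -0.61 ± 0.27, 0.57 ± 0.26, 0.62 ± 0.43, 0.58 ± 0.16 and 1.46 ± 0.68 at 3, 9, 12, 18 and 24 months (adjusted p = 0.00289). Car2, the carbonic anhydrase that supplies bicarbonate, averaged 2.43 ± 0.04 at 3 months, 0.88 ± 0.16 at 9 months and 1.49 ± 0.11 at 24 months (adjusted p = 0.00139). Itpr3, a calcium release channel, fell at 24 against 18 months (-0.91, adjusted p = 0.00197), and 0 of the 9 rose. At 24 months Itpr3 was above background on 1 of 4 arrays, so the size of its fall is uncertain. The somatostatin receptor gene Sstr2 also fell (at least 1.67-fold lower, 0.0294, with 0 of 4 arrays above background at 24 months). Its probe was kept through the 18-month arrays alone, which favoured a fall from that age. The secretin receptor gene Sctr and the chloride channel gene Ano1 were among 7 with no probe kept.

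Of 10 duct transcription factor genes 9 were measured and 5 differed with age, among them Foxa1, Onecut1, Grhl2 and Hes1. At 24 against 18 months 2 of the 9 passed, 1 higher and 1 lower, and the one that rose was Gata6 (log2 difference 0.67, adjusted p = 0.0313). Foxa1 and Onecut1 were lower at 12 than at 9 months (-0.68, 0.0278 and -2.43, 0.0405), and hepatocytes also express both.

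Of 13 adhesion and junction genes 10 were measured and 2 differed with age, Cldn4 and Itgb6, or 5 without the 3 arrays that correlated least with their age. The claudin gene Cldn4 averaged -2.15 ± 0.28 at 24 months and 0.10 ± 0.08 at 18 months (log2 difference -2.25, adjusted p = 3.74e-06). The integrin gene Itgb6 averaged -2.04 ± 0.92 at 24 months and -3.82 ± 0.08 at 18 months (1.78, 0.00854). In this comparison Prom1 (1.69, 0.0342) and Jup (0.43, 0.0276) also rose, so 3 of 10 rose and 1 fell. Of 4 further epithelial keratins 3 were measured and 0 differed with age by limma's F test, or 1 without those 3 arrays. Krt20 differed by 0.68 between 24 and 18 months (0.304) and Krt8 by 0.41 (0.347). Of 6 cilium genes 5 were measured, and 1, Bicc1, differed with age (2 without those arrays), lower at 24 than at 18 months (-1.61, 0.0101). Bicc1 was above background on 1 of 4 arrays at 24 months, so the size of this fall is also uncertain.

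Of 7 osteopontin receptor genes all were measured and 4 differed with age (37.4% of all genes did), Cd44, Itga4, Itga9 and Itgb1. Cd44 averaged -1.04 ± 0.67 at 24 months and -2.37 ± 0.13 at 18 months (log2 difference 1.33, adjusted p = 0.00379). Itga4 (1.67, 0.00138) and Itga9 (0.47, 0.0369) rose with it, and 0 of 7 fell. Cd44 and Itga4 are also genes of leukocytes. Of 8 secreted products 7 were measured and 5 differed with age, Mmp7, Tff3, Reg3a, Ccl2 and Lcn2. Lcn2 passed limma's F test narrowly (adjusted p = 0.0498) and spread widely at 24 months (2.79 ± 3.92, range 0.08 to 8.53). Between 24 and 18 months the protease gene Mmp7 rose (at least 2.07-fold higher, adjusted p = 0.000496, with 0 of 3 arrays above background at 18 months). The trefoil peptide gene Tff3 (log2 difference 1.46, 0.0164) and the chemokine gene Ccl2 (1.30, 0.0218) also rose, and Reg3a fell (at least 1.51-fold lower, 0.00229). The Reg3a probe was kept through its 18-month arrays alone, which favoured a fall from that age.

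Genes of other liver cells moved in the same comparison. Of 10 macrophage genes 9 were measured and 7 differed with age (37.4% of all genes did), led by Vsig4, Adgre1, Marco and Cd163. At 24 against 18 months 5 of the 9, Adgre1, Cd68, Clec4f, Trem2 and Marco, rose (10.8% of all genes did) and 0 fell. The summed level of the 9, on a linear scale where 1 is the 75th percentile, was 151 to 201 at 24 months and 98.2 to 122 at 18 months. Clec4f, the brightest of them (mean log2 signal 7.06 and 6.41), weighs most in this sum. Macrophages also make Spp1, and their part in its difference was not tested. Of 10 hepatocyte genes 0 passed for 24 against 18 months by limma, with summed levels of 2410 to 3920 and 3640 to 3920, and Hnf4a alone differed with age. Without the 3 arrays that correlated least with their age, 4 of the 10 differed.

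Ducts of the pancreas share several members, and acinar genes were read for that reason. Of 12 acinar genes 7 were measured, and Prss1, Cpa1, Pnlip, Clps and Reg1a had no probe kept. The summed level of the 7 was 4.35 to 21.6 at 24 months and 6.39 to 7.95 at 18 months. Cela1, the brightest (mean log2 signal 2.66 and 2.27), weighs most in this sum. The mean log2 signal over the 7 was -2.43 to -1.70 and -1.65 to -1.38. At 24 against 18 months Cpb1 rose and Cel, Cela2a, Ctrb1 and Amy2a3 fell. Cel was above background on 1 of 4 arrays at 24 months and Cela2a on 0 of 4. Of 10 genes of stellate cells and portal fibroblasts 7 were measured and 4 differed with age, Col3a1, Pdgfrb, Eln and Lrat. The summed level of the 7 was 17.0 to 21.4 at 24 months and 12.0 to 13.3 at 18 months. Col3a1, the brightest (mean log2 signal 3.25 and 2.47), weighs most in this sum. The mean log2 signal over the 7 overlapped, at -0.24 to 0.39 and -0.01 to 0.03. At this step 1 of the 7 rose, Col3a1 (log2 difference 0.77), and 2 fell, Col1a1 (-0.56, adjusted p = 0.0103) and Eln (-1.73, 0.00342). The Eln probe was kept through its 18-month arrays alone, which favoured a fall from that age. Of 7 endothelial genes 4 differed with age, Cdh5, Stab2, Clec4g and Lyve1. The summed levels were 61.3 to 75 at 24 months and 64.6 to 76.4 at 18 months. Kdr, the brightest (mean log2 signal 5.76 and 5.88), weighs most in this sum. The mean log2 signal over the 7 was 0.31 to 1.13 and 0.02 to 0.17. At 24 against 18 months 2 of the 7 rose, Stab2 (log2 difference 0.82, adjusted p = 0.0163) and Clec4g (1.28, 0.0125), and 0 fell, with a median of 0.69. The part of these cells in the differences of the duct genes was not tested.

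**Figure D4:**
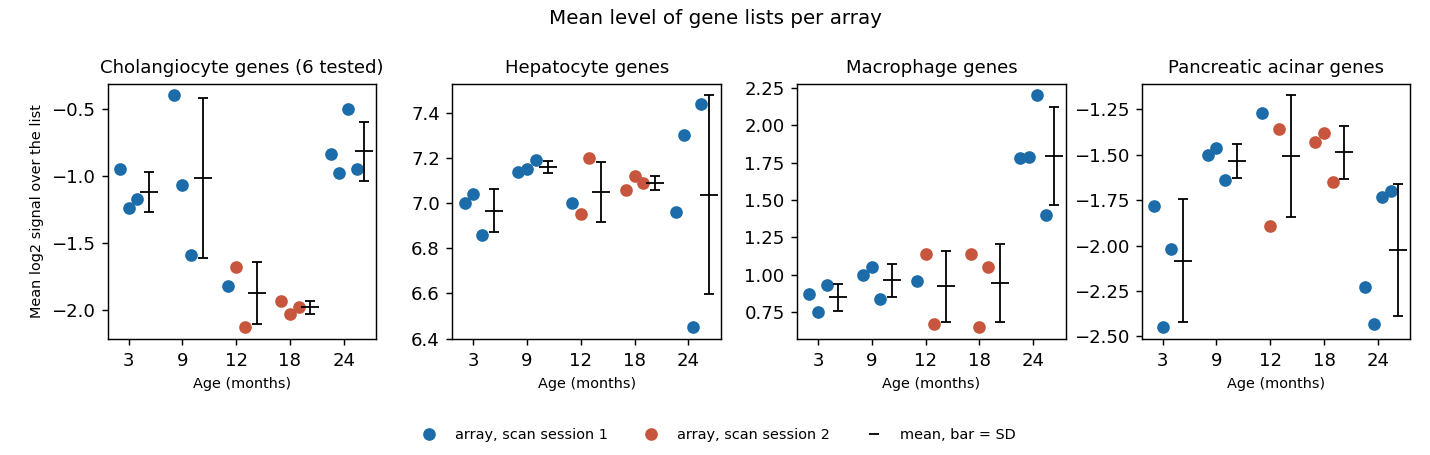
Mean log2 signal over each list (y axis) against age in months (x axis) for the 6 tested duct genes, 10 hepatocyte genes, 9 macrophage genes and 7 pancreatic acinar genes; each point is 1 array, coloured by scan session, with the mean and SD in black. The duct genes lie between -0.98 and -0.50 at 24 months and between -2.03 and -1.93 at 18 months, and the macrophage genes between 1.40 and 2.20 at 24 months and between 0.65 and 1.14 at 18 months.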

How the data were processed

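Agilent Feature Extraction 10.7.3.1 made the signal and background columns, which are intensity values deposited with no scaling across arrays, per the file headers, and with rn4 positions. Flags for control type, background and outliers are deposited columns of another kind, per the file headers. A table of log2 values was also deposited; how the authors normalized it is not stated. Its column medians were 4.92 to 4.94, and it was used only as an alternative. According to the labels a microRNA labelling kit was used, although these are mRNA arrays, and this was left unresolved.

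For each array, log2 of the processed signal was centred on the 75th percentile. Outlier spots were dropped before spots of a probe were averaged, which left 79 probe values missing, 0 of them of the members. Probes well above background in every array of some age were kept (25697 of 41012). The brightest kept probe by mean stood for its gene, giving 21457 genes (11525 with a symbol). Names came from a RefSeq table of a later build, used for names only, which matched 18028 probes by accession. A mean per age was fitted with limma 3.58.1 (R 4.3.3, data.table version 1.17.8). Tests were moderated and two-sided, adjusted by Benjamini-Hochberg over all genes, at a threshold of 0.05. The procedure was tested on simulated data.

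The members and the gene lists were chosen with earlier results of these data known. The rule named all members, the 4 genes of a list that ranked first by adjusted p for any age difference (2 where none passed), and the 3 genes most correlated with each member. Names completing a small count, and untested genes, were picked after seeing values. A gene that the rule picks is not reported here. Alternatives were quantile normalization, normexp with an offset of 50, the deposited table, other filters and probe rules, log2 age, slide, scan day, scan session or replicate number as a block, fits within a batch or on the compared ages, and leaving out arrays. Leaving out 24-month arrays 3 and 4 together, compared-age fits for every called pair, and repeating the lists without the 3 arrays that stand apart were chosen after seeing the data. Same-numbered arrays of different ages did not deviate together (25 pairs, r from -0.30 to 0.12), so the numbers were not taken to pair samples. Figures used Python 3.11.15, matplotlib 3.10.9 and pandas 2.3.3.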

Additional observations from a re-analysis of the deposited data

Results flagged for a closer look

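Among the 24-month arrays, the gap between the highest Spp1 value (array 3, -0.03) and the next (array 1, -1.33) was 0.833 of the whole range, past the 95% limit of Dixon's test for 4 samples. Chance flags about 1 in 20 groups, and 6 genes were examined at this age.

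Both Cftr probes entered no comparison, yet gave signals well above background on single arrays. The first probe did so at 51.4 intensity units on 18-month array 1, at 38.2 on 24-month array 2 and at 25.3 on 24-month array 3, beside 7.05 to 8.19 at 3 months. The second probe did so at 19.4 units on 18-month array 1, beside 3.28 to 7.60 at 3 months.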

How the results depend on the processing

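Quantile normalization, the series table, the mean of a gene's probes and the filter on all arrays left the number of called members within 1.5 times of that reported in each comparison, and no called difference changed direction under any alternative run. Normexp background correction moved the median of all genes by up to 0.14 (12 against 3 months) on the log2 scale and left 1 call for any age, 0 for 24 against 3 months, 0 for 9 against 3, 0 for 12 against 9, 1 for 24 against 18 (Krt19), 1 over all pairs and 1 for the fit on every probe; the cause was not tested. Without a filter, with more probes tested, 2 genes were called for any age and 1 for 12 against 9 months. With slide as a random block (consensus correlation 0.687) the calls were 2 for any age, 0 for 24 against 3, 0 for 24 against 18, 3 over all pairs and 2 for every probe. With scan session as a block they were 1, 0 for 24 against 18, 5 over all pairs and 1 for every probe. With the replicate number as a block, 12 against 9 months had 0 calls, and the calls for any age numbered 3. Within slide 1, 2 genes were called for 9 against 3 months, within slide 2, 0 for 12 against 9, and on the compared ages alone 0 for 12 against 9 and 2 for 24 against 18. Leaving out each array gave 2 to 5 calls for any age, 1 to 1 for 24 against 3, 0 to 1 for 9 against 3, 0 to 2 for 12 against 9, 0 to 0 for 18 against 12, 1 to 5 for 24 against 18, 0 to 0 for the trend, 9 to 16 over all pairs and 2 to 5 for every probe. Without the 3 arrays that correlated least with their age, 3 of 6 members were called for any age. Signal over background limits Krt7, Sox9 and Cftr.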
